A study of Acyrthosiphon pisum with 15 samples.

Results

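Wingless males of the pea aphid, Acyrthosiphon pisum, were compared with wingless asexual females of the same clones, so that the sexes were set against each other in insects without wings. The 6 whole-body RNA libraries were chosen by the morph and clone in their labels, out of 15 in the series, and came from clones F1, I18 and BK11, with 1 wingless male and 1 wingless asexual female library in each (n = 3 per morph). The wingless males were 2-day-old adults reared under a 13 h light and 11 h dark cycle at 15 °C. The wingless asexual females were adults of the same age reared under a 16 h light and 8 h dark cycle at 18 °C. Each library pooled 30 whole insects of 1 clone, and the labels name no treatment beyond these rearing conditions. Sex, day length and temperature differed together and cannot be told apart in this comparison. Winged males and winged asexual females, each reared like the wingless form of the same sex, gave 6 further libraries. The 3 sexual female libraries, from insects aged 2 to 6 days, shared the light and temperature of the males.

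The pea aphid feeds on plant sap and alternates between asexual and sexual generations. Asexual mothers give birth to live young from unfertilised eggs, and their bodies hold developing embryos. Males appear in the sexual generation, produce sperm, and carry fewer X chromosomes than females. Wing form in males is inherited through a sex-linked locus, whereas in asexual females it is induced by the environment. In whole bodies, fewer cells of a type and less RNA per cell cannot be told apart.

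The deposited value, a normalised count, is the read count of a gene model over its library's size factor, with no scaling for gene length. Recovered reads were 31918756, 42784904 and 38041674 in the F1, I18 and BK11 wingless males, against 62570964, 28721904 and 69726381 in the wingless asexual females. Pearson correlations of log2 values across the 20301 gene models tested, which are not independent replicates, ran from 0.860 to 0.903 among wingless males and from 0.940 to 0.952 among wingless asexual females. Between wingless males and wingless asexual females they ran from 0.675 to 0.761. The labelled sex was not checked against marker genes, because 61 of the 20657 identifiers matched the gene table used for names and 1 of these, Syt4, carries a name that is not itself an identifier. Gene models are therefore given by their identifiers.

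The I18 wingless male stood apart from the F1 and BK11 wingless males. It held 678 gene models at 8-fold or more above both other wingless males, whereas F1 held 159 and BK11 held 142. The median normalised count of these 678 gene models was 491.9 in the I18 wingless male, 11.7 in F1 and 13.9 in BK11. The F1 and BK11 wingless males are low here by the choice of these gene models. In wingless asexual females of F1, I18 and BK11 the medians were 104.8, 144.9 and 56.2. Winged asexual females of these clones had 112.3, 172.7 and 131.0, and sexual females had 40.7, 87.8 and 79.7. Winged males, which had no part in the choice, had 10.3, 21.3 and 14.9. The I18 winged male therefore did not share the elevation of the I18 wingless male. Counts of calls at the adjusted threshold are given below with and without this library. The same holds for shares of normalised counts in wingless males and for the set without a read in wingless asexual females. The 8-fold and 32-fold counts, and most values in winged and sexual females, are given only with it.

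The sexes of wingless aphids differed across a large part of the transcriptome, and the differences were steepest among gene models higher in males. Of the 20301 gene models tested, 5498 were higher in wingless males than in wingless asexual females (27.1%) and 4130 were lower (20.3%), together 47.4% (limma across all gene models, Benjamini-Hochberg adjusted p threshold 0.05). A gene model past this threshold is called here. That fit did not pair the libraries by clone. A fit with clone as a block gave 6063 higher and 4404 lower gene models. The median log2 fold change was 3.03 for the higher calls, −1.90 for the lower calls and 0.32 over everything tested. Of the calls, 3657 (18.0% of those tested) differed by at least 8-fold, 2779 upward (13.7%) and 878 downward (4.32%). Increases of at least 32-fold numbered 1283 (23.3% of the higher calls), against 194 decreases of that size (4.70% of the lower calls). The 1283 had medians from 0 to 0.90 in the wingless asexual female libraries, so the size of these increases rests on values near 0. The 3 wingless male values lay entirely above the 3 wingless asexual female values in 5346 of the 5498 higher calls, and over all gene models tested this held for 32.6%. They lay entirely below in 3921 of the 4130 lower calls, against 23.4% over all gene models tested, where 56.0% showed no overlap in either direction.

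**Figure D1:**
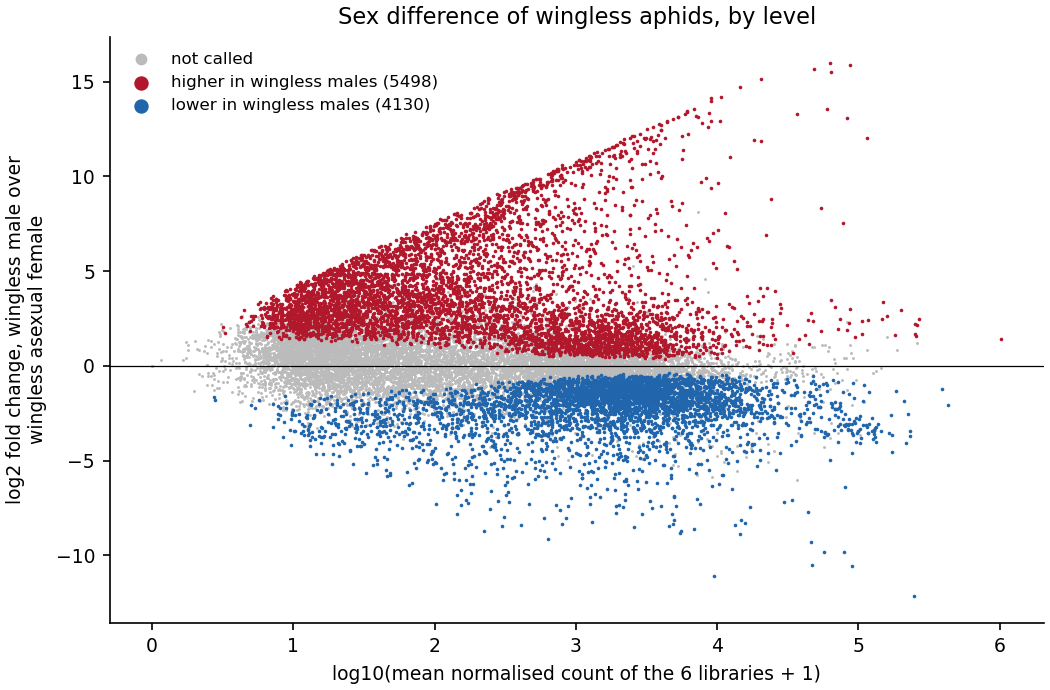
Log2 fold change of wingless males over wingless asexual females (vertical axis) against the log10 mean normalised count of the 6 libraries plus 1 (horizontal axis), with 1 point per gene model tested. The 5498 gene models called higher in wingless males spread further from 0 than the 4130 called lower, and the straight upper edge is formed by gene models at or near 0 in wingless asexual females.

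The direction of the sex difference changed with the level of the gene model. The gene models were put in 5 classes of nearly equal size by their mean normalised count over all 15 libraries. That mean includes the libraries compared, so the classes are not independent of the sex difference. In the lowest class, 26.0% were higher in wingless males and 3.69% lower. That class had means from 4.89 to 21.9, near the filter of 10 in at least 3 libraries. At such levels a gene model can pass the filter only through the libraries where it is high. The balance of directions in the lowest class is therefore not independent of the filter. In class 4, 23.1% were higher and 30.7% lower. In the highest class, 19.6% were higher and 45.1% lower. The share of higher calls was thus largest in class 3, whereas the share of lower calls rose from each class to the next. The higher calls had a median normalised count of 305.5 in wingless males and 11.5 in wingless asexual females. The lower calls had a median of 823.7 in wingless males and 2835 in wingless asexual females. These are levels in reads per gene model and were not divided by length.

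More gene models were detected in wingless males than in wingless asexual females. At a normalised count of 10 or more, 18141, 18334 and 17852 gene models were detected in the F1, I18 and BK11 wingless males, against 14842, 15222 and 15129 in the wingless asexual females. The morphs did not overlap, with means of 18109 ± 243 in wingless males and 15064 ± 198 in wingless asexual females (SD, n = 3 each; two-sided exact permutation p = 0.1, the smallest that 3 against 3 allows). After all libraries were thinned to 28721904 reads, 17261 ± 368 gene models in wingless males and 13506 ± 277 in wingless asexual females had 10 reads or more. The sum of normalised counts ran the other way, at 41914131 ± 1852077 in wingless males and 62307443 ± 5143842 in wingless asexual females (exact permutation p = 0.1). Winged insects did not share that direction, with 41223708 ± 2318413 in winged males and 38313026 ± 2353719 in winged asexual females (exact permutation p = 0.3). The 10 most abundant gene models held 12.8%, 8.16% and 13.6% of the normalised counts in the F1, I18 and BK11 wingless males, against 7.77%, 7.52% and 7.26% in the wingless asexual females. The I18 male lay closer to the females than to the other males in this share, although the morphs did not overlap (exact permutation p = 0.1). This did not hold for the 100 most abundant gene models, which held 33.4% ± 5.09 in wingless males and 32.7% ± 0.771 in wingless asexual females (exact permutation p = 0.9), with the I18 male, at 27.6%, below every wingless asexual female.

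Many gene models read in males had no read at all in wingless asexual females, and the reverse was rare. No read fell on 641 of the 20657 gene models in any of the 3 wingless asexual female libraries, out of 161019249 reads over them. No read fell on 22 gene models in the 3 wingless male libraries, out of 112745334 reads. The 641 were chosen whatever their level in males. A normalised count of at least 10 in all 3 wingless males was reached by 409 of them, one of at least 100 by 166 and one of at least 1000 by 38. With the I18 wingless male left aside, 185 reached 100 in the F1 and BK11 wingless males. All 166 stayed under 10 in every winged asexual female library, and 143 of them stayed under 10 in every sexual female library. Their median normalised count was 1468, 1772 and 450.1 in the F1, I18 and BK11 wingless males, and 685.3, 440.2 and 149.5 in the F1, I18 and BK11 winged males. The BK11 library was the lowest of both male morphs for this set. Of the 22, a normalised count of at least 10 in all 3 wingless asexual females was reached by 4, and one of at least 100 by 1.

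ACYPI003104-RA and ACYPI080801-RA were the gene models with the highest mean in wingless males among those without a read in wingless asexual females. ACYPI003104-RA had normalised counts of 59142, 45884 and 16529 in the F1, I18 and BK11 wingless males, against 0 in all 3 wingless asexual females. It was at least 10237-fold higher in wingless males, with each 0 replaced by the value of 3 reads in that library (limma adjusted p = 9.1e-08). ACYPI080801-RA had 28121, 15603 and 43173 in the wingless males of the same clones, against 0 in all 3 wingless asexual females, and was at least 7318-fold higher (limma adjusted p = 3.9e-07). Both were also at 0 in all winged asexual females. In sexual females they were at 0 in F1, at 10.9 and 64.7 in I18, and at 31.2 and 50.1 in BK11.

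Among gene models without a read in wingless males, ACYPI40971-RA was present in wingless asexual females of every clone. Its values were 0 in all 3 wingless males, against 578.3, 242.1 and 513.2 in the F1, I18 and BK11 wingless asexual females. It was at least 131-fold lower in wingless males (limma adjusted p = 2.2e-07). Winged asexual females of the same clones had 103.7, 71.7 and 104.4, and sexual females had 0.94, 0.64 and 1.30. ACYPI084012-RA, the other gene model of this kind with a high mean, differed among clones. It was at 0 in all wingless males, against 1518 in the F1 wingless asexual female and 0 in I18 and BK11 (limma adjusted p = 0.31), and the winged asexual females of these clones had 502.8, 307.8 and 0.

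The largest increases in wingless males belonged to gene models that were nearly silent in asexual females. ACYPI001912-RA had normalised counts of 104389, 74795 and 200822 in the F1, I18 and BK11 wingless males, against 2.15, 0 and 0.90 in the wingless asexual females, where 3 reads were counted in all. The ratio of the means was 124645, with a 95% counting interval from 42651 to 604415 that covers counting error only (limma log2 fold change 15.97 ± 1.49 SE, adjusted p = 1.8e-06). ACYPI004554-RA had 213700.15, 90001 and 218829 in the wingless males, against 0, 3.97 and 2.70 in the wingless asexual females, where 5 reads were counted (15.90 ± 1.58, limma adjusted p = 3.1e-06). For both, I18 gave the lowest wingless male value. Their means in winged males were 211317 and 181565. In sexual females they were at 0 in F1, at 203.1 and 190.9 in I18, and at 193.3 and 291.0 in BK11, so the 3 sexual female libraries fell into 1 without and 2 with a low level of these reads.

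The largest decreases joined wingless males with winged males and set both far below asexual females. ACYPI007459-RA had normalised counts of 102.5, 89.6 and 131.7 in the F1, I18 and BK11 wingless males, against 555960, 499654 and 422957 in the wingless asexual females (log2 fold change −12.15 ± 1.13 SE, limma adjusted p = 1.7e-06). It had 92.3, 82.5 and 159.0 in the winged males of these clones, against 199952, 191097 and 150457 in the winged asexual females. The sexual females had 843.9 in F1, 19.9 in I18 and 1993 in BK11. ACYPI010033-RA had 5.19, 27.4 and 2.31 in the wingless males, against 22510.3, 12749 and 21936 in the wingless asexual females (−11.11 ± 0.75, limma adjusted p = 1.2e-07). For ACYPI010033-RA the I18 male exceeded the F1 and BK11 males, and without it the log2 fold change was −11.99.

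Other gene models differed between the sexes by nearly the same factor in every clone. ACYPI25955-RA had normalised counts of 838.3, 248.1 and 916.4 in the F1, I18 and BK11 wingless males, against 35.5, 9.92 and 38.6 in the wingless asexual females. Its level was lowest in I18 in both sexes, and the log2 differences within the F1, I18 and BK11 clones were 4.52, 4.51 and 4.53 (limma adjusted p = 5.6e-05). ACYPI073687-RA had 2018, 1239 and 1094 in the wingless males, against 73.1, 45.6 and 40.4 in the wingless asexual females, with within-clone differences from 4.72 to 4.77 (limma adjusted p = 2.7e-05).

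Among the decreases, ACYPI008239-RA was the most even, with 634.6, 518.8 and 561.6 in the F1, I18 and BK11 wingless males, against 7009, 5675 and 6082 in the wingless asexual females. Its within-clone log2 differences ran from −3.46 to −3.43 (limma adjusted p = 2.2e-06). ACYPI006661-RA had 576.2, 398.1 and 542.0 in the wingless males, against 4647, 3165 and 4555 in the wingless asexual females (limma adjusted p = 2.0e-06). Both were at or below the wingless male mean in sexual females, with means of 420.9 and 155.3. These 4 were chosen for their evenness among clones, so their evenness is a description.

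Syt4 (ACYPI009209-RA), named for synaptotagmin, which sits in vesicle membranes, rose in wingless males. It had normalised counts of 7942, 4486 and 7082 in the F1, I18 and BK11 wingless males, against 964.3, 1411 and 688.4 in the wingless asexual females (log2 fold change 2.69 ± 0.34 SE, limma adjusted p = 2.4e-05). Its within-clone log2 difference was 3.04 in F1, 1.67 in I18 and 3.36 in BK11, and the I18 male was the lowest and the I18 female the highest of its morph. Sexual females of these clones had 8556, 7528 and 5875, inside or near the range of the wingless males. Of the 61 identifiers in the gene table, 3 were higher and 28 lower in wingless males, with a median log2 fold change of −0.93; over all gene models tested, 27.1% were higher and 20.3% lower, with a median of 0.32. Except for ACYPI084012-RA, the call of each gene model named up to here was kept in all 24 alternative fits.

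**Figure D2:**
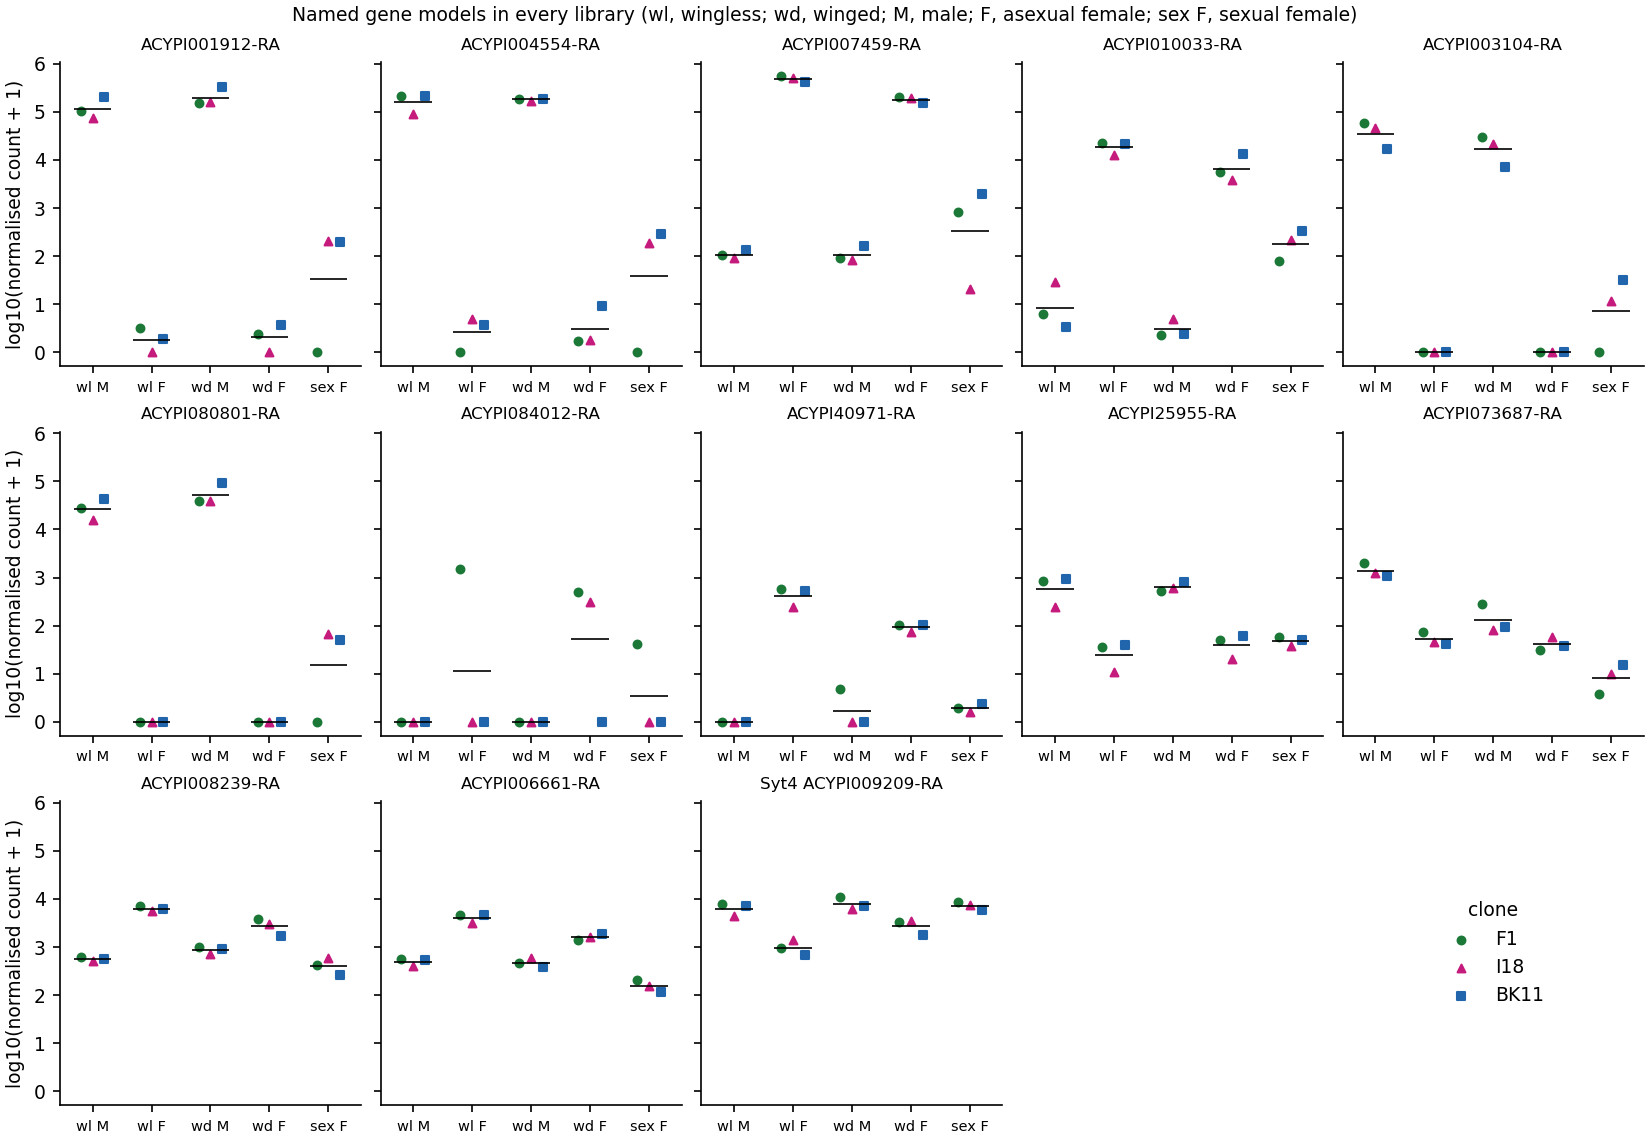
Normalised counts of 13 gene models, Syt4 among them, in every library, as log10 of the value plus 1, by morph and clone; the short lines mark the mean of the 3 log values. The 3 wingless male points lie apart from the 3 wingless asexual female points in every panel except ACYPI084012-RA, where only the F1 wingless asexual female is above 0.

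The gene models called higher in wingless males filled a large part of the male libraries and a small part of the female ones. Their share of all normalised counts was 47.2%, 33.1% and 45.1% in the F1, I18 and BK11 wingless males, against 5.92%, 6.96% and 5.69% in the wingless asexual females. The 2779 with at least an 8-fold increase held 15.5%, 11.2% and 12.8% in wingless males, against 0.278%, 0.291% and 0.250% in wingless asexual females. The lower calls held 20.7%, 28.5% and 21.4% in wingless males, against 70.1%, 67.0% and 70.8% in wingless asexual females. The I18 male held the least of the higher and the most of the lower gene models among the males. For the gene models called without the I18 male, the higher ones held 47.9%, 32.4% and 45.7% in the F1, I18 and BK11 wingless males, and the lower ones 20.1%, 36.8% and 20.8%. These shares describe the libraries that made the calls; the winged and sexual female libraries entered the fit only through the filter and the estimate of spread. In winged males the higher calls held 44.8% ± 1.09 and in winged asexual females 10.2% ± 0.536 (SD, n = 3 each). For the lower calls the shares were 20.9% ± 0.889 in winged males and 61.2% ± 2.16 in winged asexual females.

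**Figure D3:**
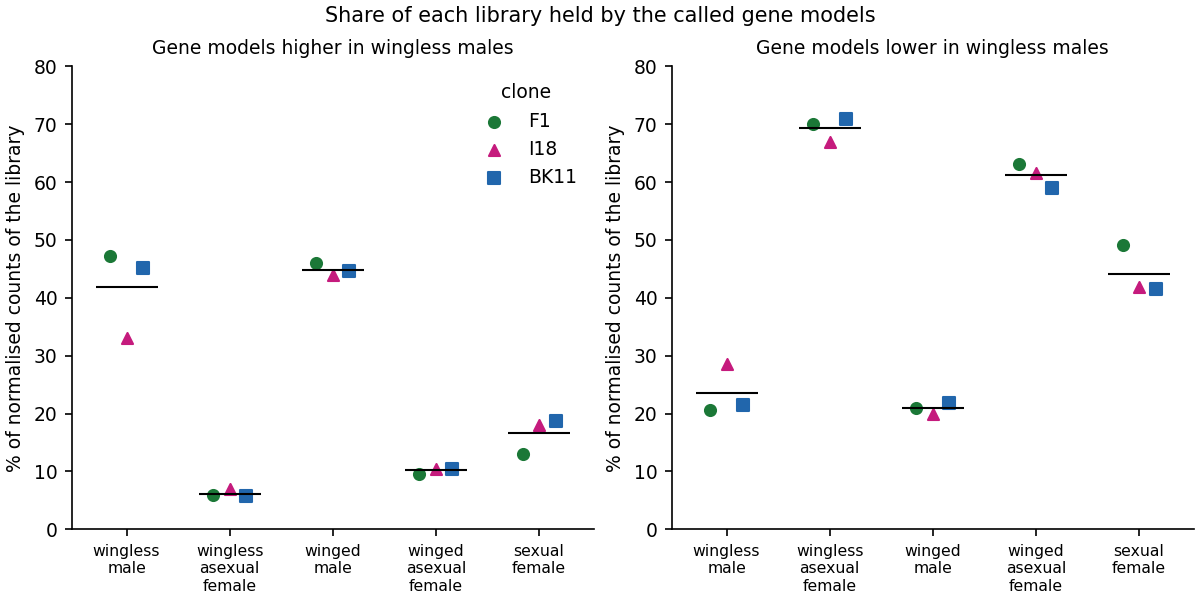
Percentage of the normalised counts of each library (vertical axis) held by the gene models called higher (left) and lower (right) in wingless males, by morph, with 1 point per clone and a line at the mean. The I18 wingless male, at 33.1% and 28.5%, lies between the other wingless males and the wingless asexual females in both panels, and the winged males lie from 43.9% to 46.0% on the left and reach at most 21.8% on the right.

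The called sex differences were smaller in the I18 pair of libraries than in the F1 and BK11 pairs. Of the 5498 higher calls, 5429 were higher in the male of all 3 clones, and of the 4130 lower calls, 4025 were lower in all 3. All 105 lower calls that broke this rule did so in I18. The calls were made from these same libraries, so agreement among clones is largely fixed by the choice. Over all gene models tested, the 56.0% without overlap between the morphs also had 1 direction in all 3 clones. Among the higher calls the median within-clone log2 difference was 3.28 in F1, 2.74 in I18 and 2.99 in BK11. Among the lower calls it was −2.21, −1.32 and −2.08 in the same order of clones. The same was seen where a library had no part in the choice of gene models. The libraries of the other morph, against which it was measured, did take part in that choice. For the 4469 gene models called lower without the I18 wingless male, the median log2 difference from wingless asexual females was −1.38 in that male and −2.10 in the other 2. For the 5164 called higher without it, the median was 2.61 in that male and 3.17 in the other 2. The I18 wingless male agreed in direction for 88.4% of the lower and 98.2% of the higher ones. The F1 and BK11 wingless males, left out in the same way, agreed for 98.3% to 99.9%. The I18 wingless asexual female, when left out, also gave smaller medians than the other 2 of its morph. They were −1.58 against −2.06 for the lower calls and 2.91 against 3.29 for the higher calls. For F1 and BK11 the lower medians were −2.09 against −1.94 and −2.03 against −1.98. The higher medians there were 3.31 against 3.38 and 3.30 against 3.39.

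Without the I18 wingless male 5164 gene models were higher and 4469 lower. These held 4855 of the 5498 higher calls (88.3%) and 3844 of the 4130 lower ones (93.1%), and none had the opposite direction. Of the higher calls not kept, 111 fell below the filter on low values.

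**Figure D4:**
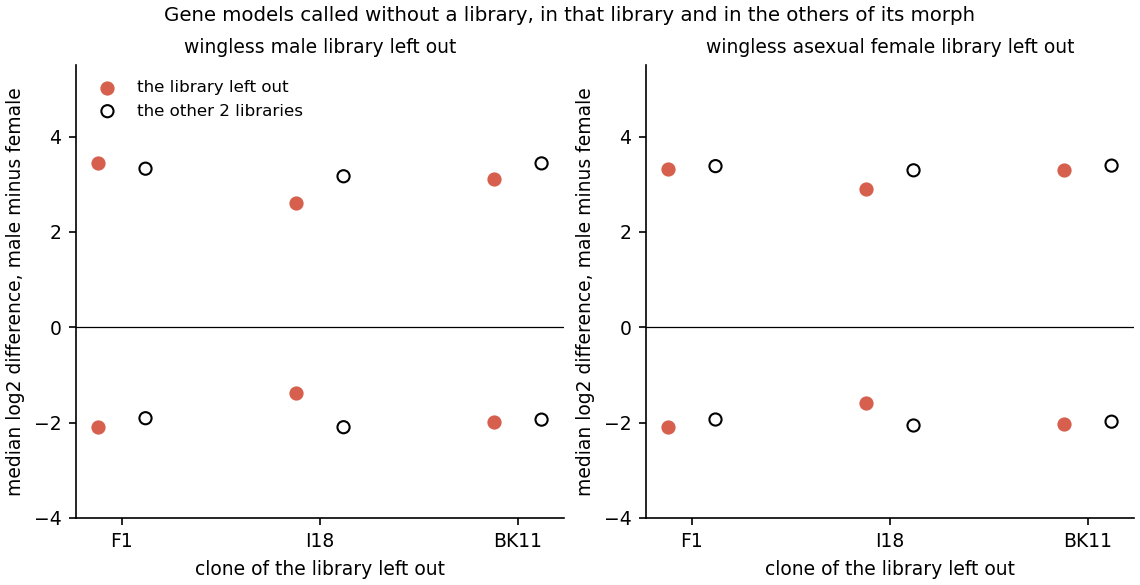
Median log2 difference between wingless males and wingless asexual females (vertical axis) for gene models called after 1 library was left out, shown for that library (filled) and for the other 2 of its morph (open); points above 0 are the higher calls and points below 0 the lower calls. The largest gap is that of the I18 wingless male, at −1.38 against −2.10 for the lower calls and 2.61 against 3.17 for the higher calls.

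The sex difference of wingless aphids was then set beside that of winged ones, which came from other libraries of the same clones. In winged males 4430 gene models were higher than in winged asexual females (21.8%) and 3890 lower (19.2%), together 41.0% of those tested. At least 8-fold differences were called for 2174 higher (10.7%) and 824 lower gene models (4.06%) in winged insects, together 14.8%. Of the 5498 gene models higher in wingless males, 3439 were also called higher in winged males, which is 62.6% of the first list and 77.6% of the second. Of the 4130 lower ones, 2794 were called lower in winged males, which is 67.7% and 71.8%. The opposite direction was called in winged males for 30 of the higher and 32 of the lower gene models. The direction was shared, with or without a call in winged insects, by 93.4% of the higher and 93.6% of the lower calls, and by 80.5% of all gene models tested. The median log2 fold change in winged insects was 2.21 for the higher and −1.29 for the lower calls, and 0.22 over all gene models. The gene models called higher in winged males had a median of 2.95 there and 2.87 in wingless insects. Both comparisons came from 1 fit and share its estimates of spread.

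A test of the difference between these sex differences called 120 gene models with a positive value of wingless minus winged (0.591%) and 260 with a negative one (1.28%), together 1.87% (limma, adjusted p threshold 0.05). The sex difference was larger without wings in 303 of these 380 and larger with wings in 77. This split was counted in limma on the deposited scale only. Over all gene models tested, the median absolute log2 fold change was also larger without wings, at 1.34 against 1.14 with wings. With morph means taken on the log2 scale and converted back, the 260 had a median level of 2652 in wingless males, 9944 in wingless asexual females, 3312 in winged males and 3443 in winged asexual females, the wingless asexual females being the highest. The 120 had a median level of 430.3 in wingless males, 105.2 in wingless asexual females, 312.3 in winged males and 513.8 in winged asexual females, the wingless asexual females being the lowest. The balance of directions differed between fits. Positive values made up 31.6% of the calls in limma on the deposited scale and 33.8% with clone as a block. They made up 45.0% after trimmed mean (TMM) scaling alone, and 46.7% with sample quality weights on the deposited scale. On recovered reads, where test and input change as well, they made up 49.2% in edgeR and 50.8% in DESeq2. Leaving out any 1 of the 12 libraries compared moved the positive count by more than 1.5 times, to between 12 and 275, and the negative count ran from 26 to 473. Without the I18 wingless male there were 64 positive and 201 negative calls, and 98 and 327 with clone as a block as well. A fit without 4 libraries put together from earlier results, the I18 and BK11 wingless males, the BK11 winged male and the BK11 sexual female, leaves the F1 wingless male alone and assumes that it varies like the other groups. It called no gene model by limma, and 1041 positive and 1302 negative ones had an unadjusted p under 0.05.

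**Figure D5:**
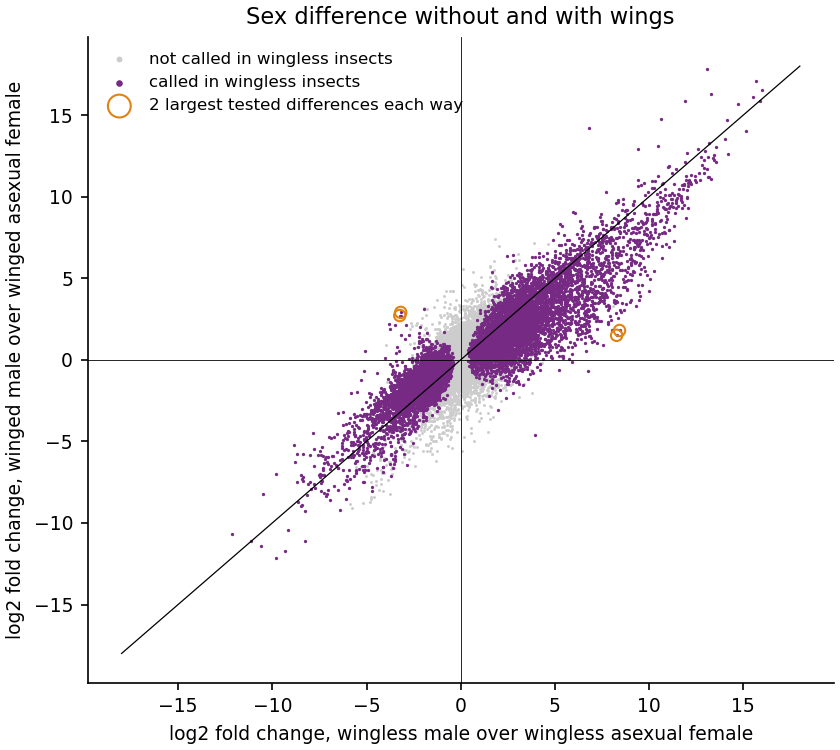
Log2 fold change of males over asexual females in winged insects (vertical axis) against that in wingless insects (horizontal axis), with 1 point per gene model tested and a line of equality. Called gene models lie mostly in the quadrants of shared direction (93.4% of the higher and 93.6% of the lower calls), and the circled ones, 2 in each direction, have the largest tested differences.

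The sex differences of the named gene models were also measured in winged insects. The log2 fold change in winged insects was 16.54 ± 1.49 for ACYPI001912-RA, 15.85 ± 1.58 for ACYPI004554-RA, −10.70 ± 1.13 for ACYPI007459-RA and −11.10 ± 0.75 for ACYPI010033-RA, and for none of the 4 was the difference from the wingless value called (limma adjusted p from 0.73 to 0.998). ACYPI073687-RA had 284.6, 78.5 and 93.8 in the F1, I18 and BK11 winged males, below the wingless males, against 30.8, 57.6 and 36.4 in winged asexual females. Its difference of wingless minus winged was 3.09 ± 0.86 (limma adjusted p = 0.085, not called). That of ACYPI008239-RA was −1.81 ± 0.47, with a limma adjusted p of 0.067 without and 0.047 with clone as a block. That of Syt4 was 1.18 ± 0.48 (limma adjusted p = 0.23).

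Sexual females, which shared the light and temperature of the males, did not side with either morph as a whole. The comparisons with them would share samples with the one described here, so their levels are given as a description. Among the higher calls, the mean log2 level of sexual females lay nearer to wingless males in 2069 (37.6%) and nearer to wingless asexual females in 3429 (62.4%). Among the lower calls it lay nearer to wingless males in 1945 (47.1%), and over all gene models tested in 44.5%. For differences of at least 8-fold the directions parted: sexual females lay nearer to wingless males in 24.9% of the higher calls and in 73.0% of the lower ones. The share of the 8-fold higher gene models was 13.2% ± 2.15 in wingless males, 0.273% ± 0.0210 in wingless asexual females and 5.67% ± 2.52 in sexual females. Their typical level in sexual females was low. The library medians ran from 3.75 to 9.76 there, from 116.7 to 206.3 in wingless males and from 1.80 to 2.15 in wingless asexual females. The 1283 with at least a 32-fold increase held 4.70% in sexual females, at medians from 0.94 to 4.56, so a minority of abundant gene models carried that share. The 8-fold lower ones held 3.55% ± 1.78 in wingless males, 27.3% ± 0.976 in wingless asexual females and 8.17% ± 0.910 in sexual females (SD, n = 3 each).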

How the data were processed

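Each deposited value is a signal, a count per gene model over its library's size factor, given by the authors for 20657 gene models in 15 libraries. The submitters' processing notes name DESeq2 without a version; aligner, strand setting, build and annotation are not stated in the labels. Every value was a whole multiple of 1 read's worth in its library, within 0.001 of a read, so reads were recovered. The test was limma 3.58.1 in R 4.3.3 on log2(value + 1), a scale that understates the change of low genes, with the prior variance following the mean. The fit had 5 morph means over 15 libraries and 10 residual degrees of freedom. The 20301 gene models that reached 10 in 3 or more libraries were tested, with Benjamini-Hochberg adjustment in each comparison. Clones are the replicates, so the spread covers clones and preparations. Same-numbered libraries are the same clone, and their deviations from the morph means correlated (r from 0.221 to 0.406 for the 3 pairs compared). Recovered reads were tested with edgeR 4.0.16 and DESeq2 1.42.0 as alternatives, and the limma step was checked on simulated data, where smaller changes were recovered less fully than large ones and the pass rule was relaxed after the first outcome was seen. Totals of 28721904 to 75066116 reads limit low values: a count of 0 allows 3 reads, worth 2.70 to 5.95 normalised counts in the libraries compared, for counting error only.

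The libraries, gene models and lists were chosen with earlier results of these data known. The gene models named were, in each direction, the 2 with the largest called fold change, the 2 with the highest mean against a morph at 0, the 2 with the largest tested difference between wingless and winged insects, and the 2 most even among clones at 8-fold or more, with a mean of at least 100 except for those at 0. The rule also named every identifier with a symbol in the table of assembly pea_aphid_22Mar2018_4r6ur_v2. Of 61 that matched, all but Syt4 have symbols that repeat an identifier, and these were only counted, a choice made after the data were seen. Lists by product name could not be applied, and no coordinates or sequences were used.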

Additional observations from a re-analysis of the deposited data

Results flagged for a closer look

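The sex difference itself differed between wingless and winged insects, by a test of that difference across all gene models (limma adjusted p threshold 0.05), for 120 gene models with a positive and 260 with a negative value of wingless minus winged. The 2 named in each direction, with a mean of at least 100, follow.

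ACYPI001157-RA had normalised counts of 380.2, 2171 and 99.4 in the F1, I18 and BK11 wingless males, against 0, 0 and 1.80 in the wingless asexual females, with a difference of wingless minus winged of 6.77 ± 1.49 (limma adjusted p = 0.041). ACYPI46674-RA had 366.0, 1534 and 71.7 in the wingless males, against 0 in all 3 wingless asexual females, with a difference of 6.63 ± 1.29 (limma adjusted p = 0.027). The I18 wingless male was the highest for both, and leaving it out gave log2 differences of 5.62 and 5.56, with limma adjusted p-values of 0.057 and 0.034. In the F1, I18 and BK11 winged males ACYPI001157-RA had 30.8, 31.9 and 14.9, against 1.43, 9.17 and 28.8 in the winged asexual females.

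ACYPI41054-RA had 14.3, 23.6 and 0 in the wingless males, against 116.1, 41.7 and 55.7 in the wingless asexual females, with a difference of −6.09 ± 1.44 (limma adjusted p = 0.049). ACYPI065920-RA had 9.08, 9.43 and 1.16 in the wingless males, against 121.5, 67.5 and 21.6 in the wingless asexual females, with a difference of −5.95 ± 1.18 (limma adjusted p = 0.028). In winged males their means were 534.6 and 535.6, against 62.9 and 70.5 in winged asexual females, with the I18 winged male the highest for both, at 1043 and 1071. Their own lower calls in wingless males were lost in 7 and 2 of 24 alternatives. Over all alternatives that gave a value, the call was lost in 17 of 30 for ACYPI001157-RA, 10 of 28 for ACYPI46674-RA, 17 of 30 for ACYPI41054-RA and 10 of 30 for ACYPI065920-RA.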

How the results depend on the processing

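The 5498 higher calls stayed within 1.5 times that number in all 24 alternatives, and the 4130 lower ones in 23; trimmed mean (TMM) scaling moved the wingless log2 scale by −0.02. The excess of higher over lower calls was smaller with a filter of 50 in 3 libraries, at 4220 higher and 4035 lower of 15320 tested. edgeR called 5285 higher and 3974 lower, and DESeq2 6128 and 4295. Leaving out 1 library gave 4544 to 5164 higher and 3467 to 4469 lower calls. Leaving out 1 clone gave 3733 to 4342 higher and 2723 to 4057 lower calls, with 2723 without BK11. The clone block gave 6063 higher and 4404 lower calls and moved the differences to 176 positive and 344 negative, and no call named above changed except that of ACYPI008239-RA between winged and wingless insects. Positive differences of wingless minus winged numbered 820 with DESeq2, 1633 with sample quality weights, 226 with TMM scaling and the block, 65 without the I18 wingless male under the filter of the full set, and 0 without the 4 libraries put together from earlier results, which leaves 1 wingless male. Negative ones numbered 92 with edgeR, 795 with DESeq2, 1861 with sample quality weights and 0 without those 4 (unadjusted counts are given with the result). Leaving out 1 library gave 12 to 275 positive and 26 to 473 negative differences, both highest without the BK11 winged asexual female. TMM scaling moved this difference by 0.12 on the log2 scale. Causes were not tested. Leaving out 1 library kept the direction of the number of gene models detected (2932 to 3173 more in wingless males), of the share of the 10 most abundant (2.98 to 5.71 percentage points) and of the sum of normalised counts. The sex difference of ACYPI084012-RA was 0 without the F1 wingless asexual female. The fit with the filter of the full set, the block with TMM scaling, and those for library facts, silent gene models and sexual female levels were chosen after seeing the data.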
